A study of Xenopus tropicalis with 40 samples.

Results

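Fast skeletal troponin T and a tropomyosin are neighbours on the thin filament of muscle, and their genes, tnnt3 and tpm1, were the members examined here. They were chosen by symbol, as every transcript model that the deposited gene models of the western clawed frog Xenopus tropicalis assign to tnnt3 or tpm1, and they are 2 of the 8368 gene symbols in those models. Together they hold 162 of the 159469 transcripts, 96 at tnnt3 and 66 at tpm1. The models come from polyadenylated RNA of whole outbred embryos and tadpoles, in 40 strand-keeping libraries of 23 stages between the 2-cell embryo and stages 44 and 45. The 2 clutches gave 16 libraries of 14 stages (clutch 1) and 24 libraries of 22 stages (clutch 2), with 13 stages in both, and no treatment or genotype is named. What is analysed is 1 catalogue pooled over all of these libraries, so there are no replicates, no value belongs to a stage or clutch, library depth is unknown, and in whole embryos the cell type behind a transcript is not recorded.

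Tropomyosin is a coiled coil that lies along the actin filament and covers or uncovers the myosin binding sites. Troponin T holds the troponin complex on tropomyosin, troponin I inhibits, and troponin C binds the calcium that starts contraction. In mammals and birds the N-terminal part of fast troponin T is varied by a run of very short exons that are included or skipped, and a pair of exons near the C-terminal end is used one at a time. In mammals TPM1 makes muscle and non-muscle tropomyosins from 1 gene through alternative first exons, exclusive internal exons and alternative last exons. The question put to the gene models was where such microexons, exclusive exons and alternative ends lie in the frog genes and in how many transcripts each recurs.

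Both genes were among those with the most assembled transcripts. At tnnt3 there were 95 spliced transcripts on the strand of the gene, against a median of 5 over the 8199 annotated genes with a spliced transcript, and 36 genes had more. At tpm1 there were 66, and 83 genes had more. All 95 and all 66 differed in their chain of introns. This was not particular to these genes: it also held for the 678 transcripts of LOC496414, the most at any gene, and the 256 of cirbp. By the code that relates a transcript to the annotation, none matched an annotated chain: 93 at tnnt3 and 66 at tpm1 were new chains that share a junction with the annotated gene, and 2 at tnnt3 overlapped its exons otherwise. RefSeq's table for assembly UCB_Xtro_10.0, used for names and counts only, lists 28 transcripts for tnnt3 and 13 for tpm1, against a median of 2 over 7224 genes.

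The tnnt3 gene lies on the plus strand of scaffold GL173055, and the exons shared by its transcripts run from base 550875 to base 572216. The tpm1 gene lies on the plus strand of scaffold GL172739, between bases 1096564 and 1126610. Positions are counted from 1 on scaffolds of a build not named in the sources used here. A tnnt3 transcript had 2 to 21 exons (median 15) and 254 to 2054 bases (median 1687). A tpm1 transcript had 4 to 11 exons (median 9) and 340 to 2509 bases (median 1360.5). The deposited value headed FPKM is a relative weight of a transcript that never exceeds 1. It was 1 in 27 tnnt3 transcripts and 37 tpm1 transcripts, with lowest values of 0.111 and 0.143, and it does not measure how much of a transcript was present.

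Exons were numbered along each gene after grouping forms that overlap. A transcript was said to span an exon when its first exon ended before it and its last exon started after it. It then either held the exon or spliced over it, and use as a first or last exon was not counted. For pairs of exons, a transcript that held either as a first or last exon was also counted as spanning. Along tnnt3 the numbering gave 18 exons. Exon 1 is the usual first exon, with 251 bases in its commonest form, and exon 18 is the usual last exon, with 724 bases. Exons 2 to 9 are short, and exons 10 to 17 lead to the end of the gene. Nearly every spanning transcript held exon 2 (70 of 71), exon 3 (77 of 78), exon 4 (74 of 78), exon 9 (81 of 85) and each of exons 10 to 15 (93.8% to 97.7%). Exon 5 was held by 49 of 83 spanning transcripts, exon 6 by 73 of 84, exon 7 by 69 of 84, exon 8 by 63 of 84, exon 16 by 47 of 85 and exon 17 by 41 of 80. Skipping was thus most frequent at exons 5 to 8 and at exons 16 and 17. The exons between them were rarely skipped but did vary in their ends: exon 10 had its commonest form in 58 of the 82 spanning transcripts that held it, and exon 11 in 57 of 76.

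**Figure D1:**
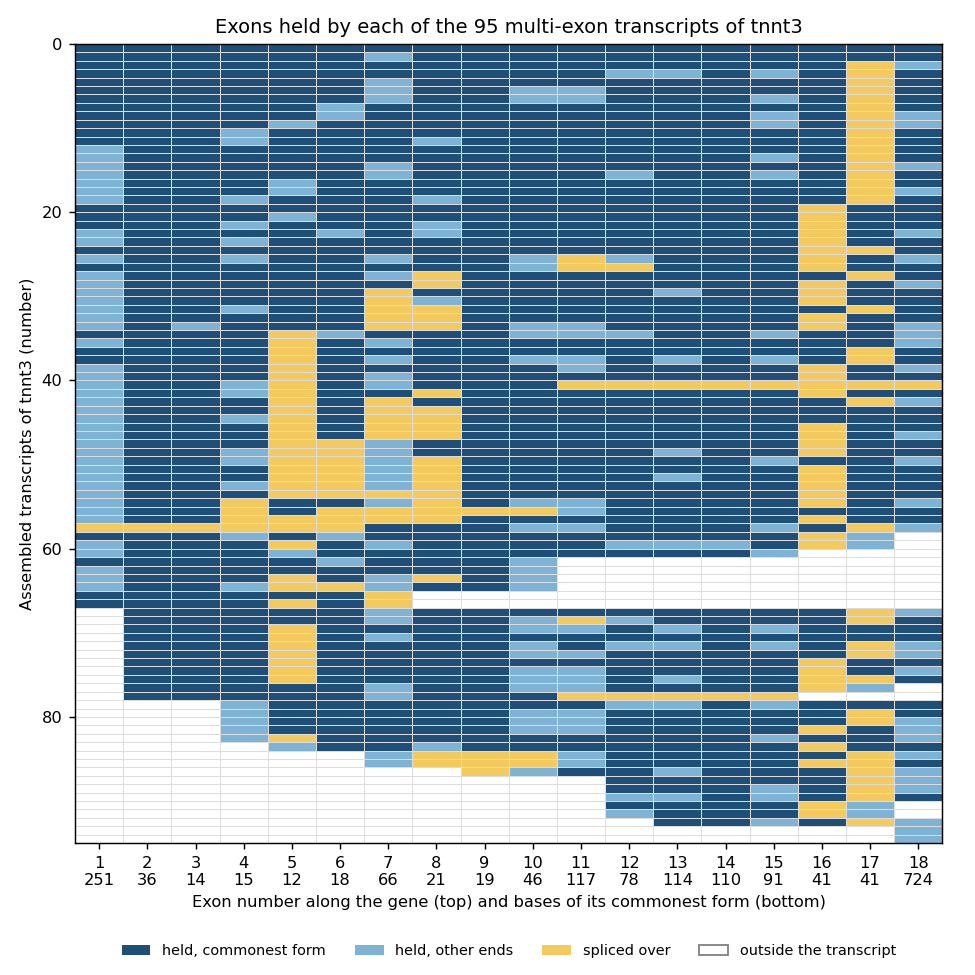
Each line is 1 of the 95 spliced tnnt3 transcripts and each column 1 of its 18 exons, with the number of bases of the commonest form under the exon number. Dark blue marks an exon held in its commonest form, light blue an exon held with other ends, yellow an exon spliced over, and white an exon outside the transcript. Yellow concentrates in exons 5 to 8 and in exons 16 and 17.

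A microexon is taken here as an internal exon of 27 bases or less held with the same ends by 2 or more transcripts. There were 14 such forms at tnnt3, and 9.53% of the 8199 annotated genes had 1 or more. Of all genes, 6 had more than 14 and 1 other had 14. Among the 160 genes with 50 or more spliced transcripts, 5 had more and the median was 1. The 14 forms belong to 6 exons, exons 3, 4, 5, 6, 8 and 9, and differ within an exon by 1 to 5 bases at an end.

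The first of these, exon 3, has 14 bases (554677 to 554690) and was in 76 transcripts with those ends. Exon 4 has 15 bases in its commonest form (555980 to 555994, 59 transcripts), and forms of 12, 16 and 17 bases were in 10, 3 and 2 transcripts. Exon 5 is the shortest, with 12 bases (557025 to 557036, 44 transcripts), and its forms of 14 and 16 bases were in 2 transcripts each. It was also the microexon most often left out: 34 transcripts spliced over it, so that 59.0% of spanning transcripts held it (Wilson 95% interval 48.3% to 69.0%). Such intervals cover counting error only, and transcripts of 1 gene are not independent, so they describe this catalogue.

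Exon 6 has 18 bases (557449 to 557466, 67 transcripts) and was spliced over by 11 transcripts. Its other forms have 23 bases (3 transcripts) and 15 bases (2 transcripts). Exon 8 has 21 bases (560530 to 560550, 57 transcripts), was spliced over by 21, and has a 24-base form in 4. Exon 9 has 19 bases (562450 to 562468, 81 transcripts) and was spliced over by 4. Between them, exon 7 is longer, with 66 bases (559114 to 559179, 42 transcripts) and forms of 63, 45 and 33 bases in 17, 6 and 2 transcripts. It was spliced over by 15.

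The commonest forms of all 5 exons of this variable stretch, exons 4 to 8, have a length that is a multiple of 3, the number of bases in a codon. All 4 forms of exon 7 and both forms of exon 8 do as well. Exon 3 (14 bases) and exon 9 (19 bases), which flank the stretch, do not, while exons 2, 11, 12 and 13 (36, 117, 78 and 114 bases), which were rarely skipped, do. Exon 4 was itself skipped by only 4 of 78 spanning transcripts, so such lengths occurred among both the often and the rarely skipped exons of tnnt3. Where the protein starts is not given by the models, whose coding ends repeat the transcript ends, so these are lengths and not reading frames. Counted over all 14 microexon forms, 7 had a length divisible by 3 (50%), against 701 of 1473 forms over all annotated genes (47.6%), so the count over forms was near the background.

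**Figure D2:**
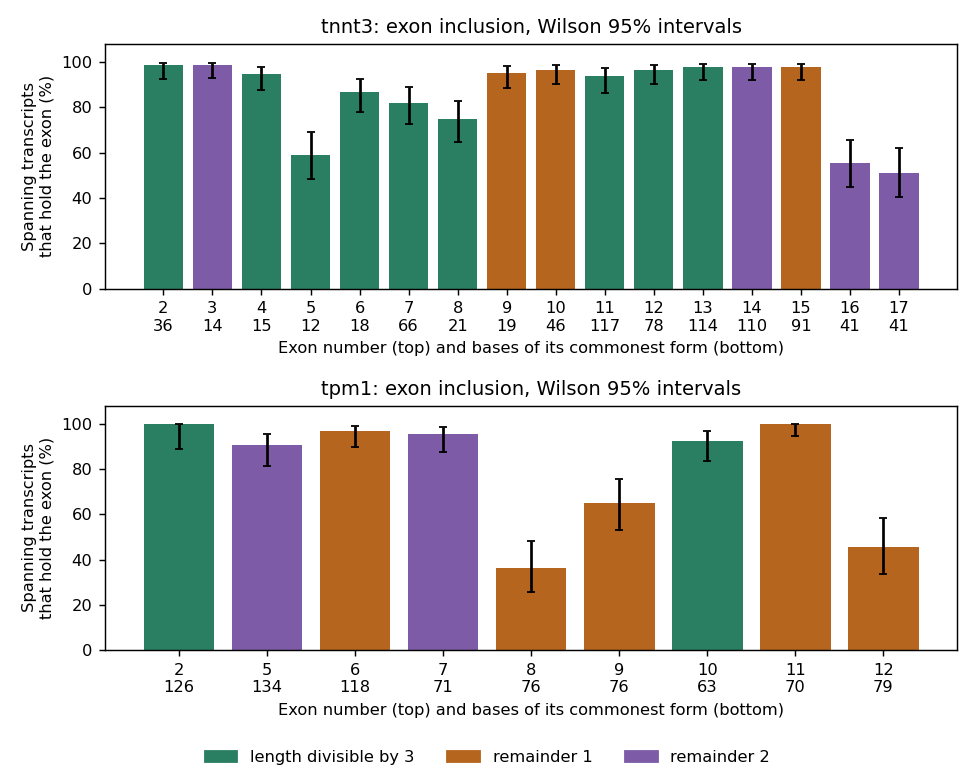
Bars give the percentage of spanning transcripts that held each internal exon of tnnt3 (top, exons 2 to 17) and tpm1 (bottom, its 9 exons that are chiefly internal), and error bars the Wilson 95% interval. Colour marks whether the commonest length is a multiple of 3 or leaves a remainder. Multiples of 3 are at the tnnt3 exons 4 to 8 and also at its rarely skipped exons 2, 11, 12 and 13. Remainders are at exons 16 and 17 of tnnt3 and 8, 9 and 12 of tpm1. They are also at the rarely skipped exons 3, 9, 10, 14 and 15 of tnnt3 and 5, 6, 7 and 11 of tpm1.

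From the donor of exon 3 to the acceptor of exon 9, 73 tnnt3 transcripts could be read through the whole stretch. They used 13 of the 32 combinations that 5 exons allow. All 5 exons were held in 35 transcripts, and exon 5 alone was missing in 15. Exons 4 and 6 without the others were in 4, exons 4 and 7 in 4, exons 4, 7 and 8 in 3, and each remaining combination in 2 or 1. Exon 4 was thus held in most combinations, and 1 transcript joined exon 3 directly to exon 9. With the alternative exon ends counted, the stretch measured 0 to 139 bases (median 120) and took 34 different lengths. The length was a multiple of 3 in 58 of the 73 transcripts (79.5%, interval 68.8% to 87.1%), in 23 different sizes. Since the commonest forms of exons 4 to 8 are all multiples of 3, this share largely follows from those lengths.

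Some of these lengths differ by 3 bases through neighbouring acceptors, the sites at which an intron ends. In tnnt3, 5 of 25 pairs of neighbouring acceptors used by 1 donor lay 3 bases apart (20%, interval 8.86% to 39.1%), against 954 of 12168 pairs over all annotated genes (7.84%). Of all annotated genes, 8.87% had 1 or more such pairs, 2 genes had more than 5 and 7 others had 5. Counted from 1 donor for each pair, the upstream acceptor of exon 4 was used by 63 transcripts and the downstream one by 10. At exon 6 the counts were 43 and 2, though 67 transcripts held its commonest form by any donor. At exon 7 they were 41 and 17, and at exon 8 they were 3 and 56. The last pair is at the start of exon 18, where 28 and 13 transcripts spliced from the same donor to bases 571493 and 571496. So 4 of the 5 pairs fall in the variable stretch, and the site preferred was the upstream one except at exon 8. Acceptors 1 and 2 bases apart made up 4 and 3 of the 25 tnnt3 pairs, against 357 and 369 of the 12168 over all genes. The share in tnnt3 was thus also higher at 1 and 2 bases, but those pairs were clustered. All 4 pairs 1 base apart lie at the start of exon 15, where 1 acceptor was used by 68 transcripts and the others by 2 to 5. The 3 pairs 2 bases apart lie at exons 5 and 15, while the 5 pairs 3 bases apart lie at 5 different exons.

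Exons 16 and 17 have 41 bases each (568104 to 568144 and 568822 to 568862) and are separated by 677 bases of intron. A strict exclusive pair, defined as neighbouring exons between the same outer splice sites that never occur in 1 transcript, was not counted at tnnt3, while 3.01% of annotated genes had 1 or more. The reason is that the exons were joined to each other in 12 transcripts. With joint use allowed in up to 20% of the transcripts that hold either, a limit added after seeing the data, tnnt3 had 1 pair and 3.61% of annotated genes had 1 or more. Among the 160 genes with 50 or more spliced transcripts, 42 had more than 1 pair by this limit and 29 others had 1. A strict pair was counted in 56 of those 160 genes. Of the 85 transcripts that span both exons, 35 held exon 16 only, 34 held exon 17 only, 12 held both and 4 held neither. The 34 include 5 that end in a 37-base piece of exon 17 and do not reach exon 18. With these 5 counted, exactly 1 exon of the pair was held in 69 transcripts (81.2%, interval 71.6% to 88.1%). The numbers for either exon were almost equal only with these 5 included. Among the 18 spanning transcripts with a relative weight of 1, the counts were 8, 6, 2 and 2 in that order.

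The junctions give the counts at each splice. Exon 15 was spliced to exon 16 in 47 transcripts, to exon 17 in 34 and directly to exon 18 in 3. Exon 16 was spliced to exon 18 in 35 and to exon 17 in 12, and exon 17 was spliced to exon 18 in 41. Because both exons have the same length, either choice leaves the same number of bases between exon 15 and exon 18. The remainder of that number after division by 3 therefore restates the choice of exons and is not a second observation. It was 2 in 63 of 78 transcripts (80.8%, interval 70.7% to 88.0%), 1 in 12 and 0 in 3. Transcripts with both exons or with neither break this pattern of length.

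The counts for this pair were also taken apart by the exons near the start. Where exon 5 was held, exon 16 alone was in 23 of 45 transcripts (51.1%) and exon 17 alone in 17 (37.8%). Where exon 5 was skipped, exon 16 alone was in 6 of 31 (19.4%) and exon 17 alone in 15 (48.4%). For exon 8, exon 16 alone and exon 17 alone were in 27 and 20 of 58 transcripts where it was held, and in 3 and 12 of 20 where it was skipped. For exon 6 they were in 28 and 25 of 66 where it was held, and in 1 and 7 of 10 where it was skipped. For exon 7 they were in 28 and 24 of 65 where it was held, and in 2 and 8 of 13 where it was skipped. For exon 4 they were in 28 and 29 of 71 where it was held, and in 1 and 2 of 4 where it was skipped. These groups of transcripts overlap, and those with exon 17 alone can include transcripts that end in its 37-base piece. No test was made of these differences. The spliced RNA between exon 5 and exon 16 had a median of 677 bases (428 to 686), while the labels give gel-selected fragments of 300 to 600 bp with adapters attached. How far both choices were seen on 1 molecule was not tested.

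**Figure D3:**
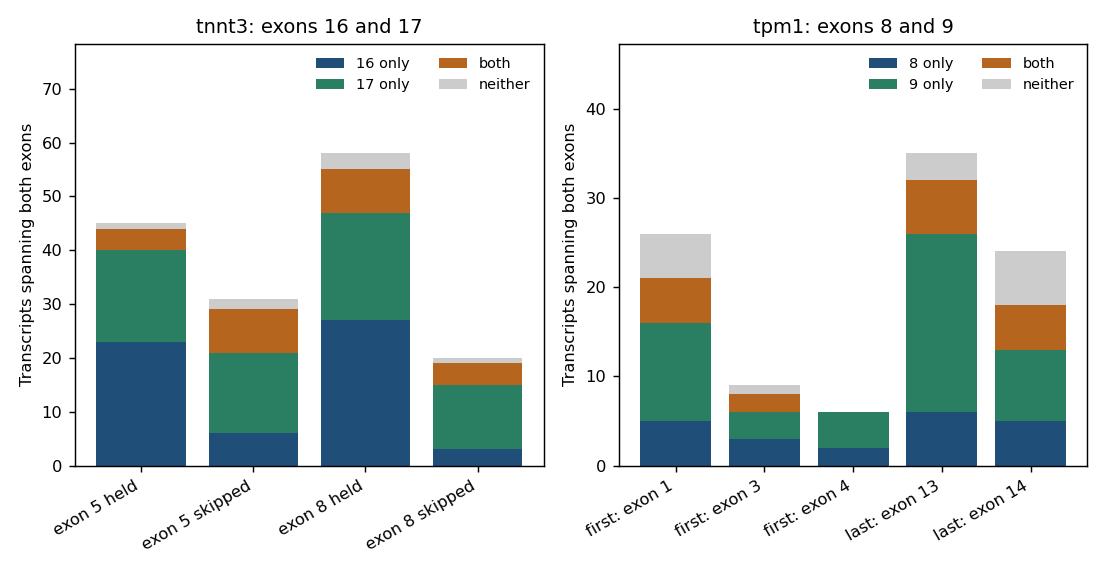
Bars count the transcripts that span both exons of a pair, coloured by whether they held the upstream exon only, the downstream exon only, both or neither. On the left, exon 16 only is the larger share of tnnt3 transcripts with exon 5 or exon 8 (23 of 45 and 27 of 58) and the smaller share without them (6 of 31 and 3 of 20), and on the right exon 9 only outnumbers exon 8 only in tpm1 with either common last exon (20 to 6 and 8 to 5).

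The ends of tnnt3 were less varied than its interior once very short terminal exons are set apart. By the splice site that ends a first exon or starts a last exon, 7 first exons and 5 last exons recurred in 2 or more transcripts. Of annotated genes, 31.6% had 2 or more recurrent first exons and 25.8% had 2 or more recurrent last exons. The donor at base 551125 ended the first exon of 66 transcripts, exon 2 was the first exon of 7, and a 409-base exon that extends exon 4 upstream (555586 to 555994) was the first of 5. The remaining 4 first exons have at most 10 bases. Of the last exons, the 724-base and 721-base forms of exon 18 ended 50 and 30 transcripts, and a 37-base piece from the acceptor of exon 17 ended 5. The other 2 have at most 3 bases and 1 base. A terminal exon of 10 bases or less occurred in 23 of 95 tnnt3 transcripts (24.2%) and 22 of 66 tpm1 transcripts (33.3%), against 15.0% of the 79873 spliced transcripts of annotated genes, and whether such ends are true starts or stops was not tested.

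Upstream of tnnt3, the assembly joined it in 1 locus with tnni2, the fast skeletal troponin I gene, and with syt8, a synaptotagmin gene. The locus holds 8 transcripts of tnni2 (473676 to 542769), 11 of syt8 (453476 to 481063) and 22 without a symbol (523704 to 551687). Of these 41 transcripts, none overlapped a numbered exon of tnnt3. A single tnnt3 transcript of 21 exons, starting at base 524695, shared 9 exons with transcripts of tnni2 or without a symbol. It spliced over exons 1 to 6, and no other transcript spliced over exon 2 or exon 3. It is also among the 4, 34 and 11 transcripts that spliced over exons 4, 5 and 6. Another tnnt3 transcript ended beyond exon 18, at base 579584. This transcript spliced over exons 11 to 18. It was 1 of the only 2 transcripts that spliced over exons 13, 14 and 15, and it is among the 4 that held neither exon 16 nor exon 17. On the opposite strand 1 transcript of 2 exons and 3974 bases (567992 to 572562) overlapped exons 16, 17 and 18 of tnnt3. It had a relative weight of 0.5, and the library protocol kept the strand of the RNA.

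Along tpm1 there were 14 numbered exons. Exons 1, 3 and 4 start transcripts, exons 2 and 5 to 12 are chiefly internal, and exons 13 and 14 end transcripts. Exon 4 was also held internally, in whole or part, by 6 of 49 spanning transcripts, with a recurrent 59-base form in 3. Exon 11, with 70 bases, was held by all 66 spanning transcripts. Exon 5 (134 bases) was held by 59 of 65, exon 6 (118 bases) by 64 of 66, exon 7 (71 bases) by 63 of 66 and exon 10 (63 bases) by 61 of 66. The variable internal exons were exon 8 (24 of 66), exon 9 (43 of 66) and exon 12 (27 of 59). None of these 3 has a length that is a multiple of 3, but nor do the rarely skipped exons 5, 6, 7 and 11. Exons 2 and 10 do.

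**Figure D4:**
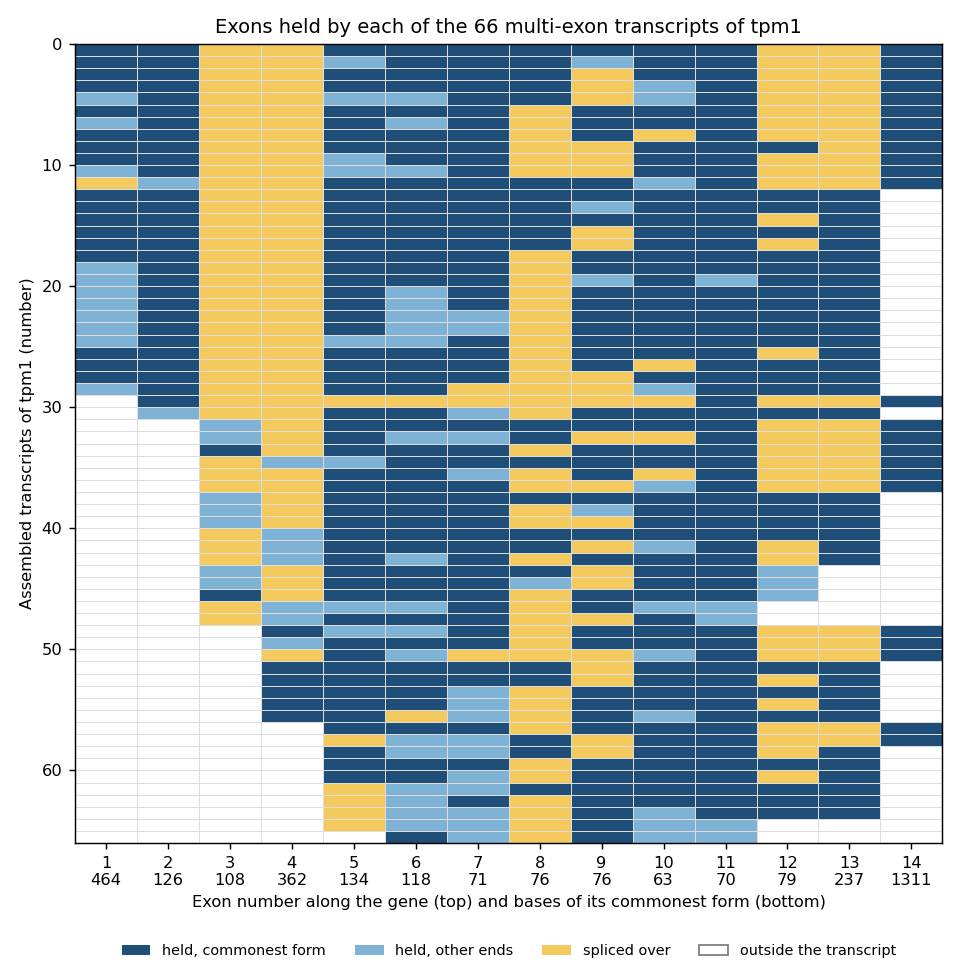
Each line is 1 of the 66 spliced tpm1 transcripts and each column 1 of its 14 exons, with the number of bases of the commonest form under the exon number and colours as in the plot of tnnt3. Exons 5 to 7, 10 and 11 are held by nearly all transcripts, while exons 8, 9 and 12 are often spliced over (yellow) and exons 13 and 14 replace each other at the end.

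Exons 8 and 9 of tpm1 have 76 bases each (1111439 to 1111514 and 1112097 to 1112172), with 582 bases of intron between them. They did not count as a strict pair either, since 9 transcripts held both in their commonest forms. They were 1 pair when joint use in up to 20% was allowed (3.61% of annotated genes had 1 or more). Of the 160 genes with 50 or more spliced transcripts, 42 had more than 1 such pair and 29 others had 1. Over all 66 transcripts, 13 held exon 8 only, 32 held exon 9 only, 11 held both and 10 held neither. Exactly 1 of them was held in 45 (68.2%, interval 56.2% to 78.2%), and exon 9 was the more frequent choice. Among the 37 transcripts with a relative weight of 1, the counts in the same order were 6, 21, 6 and 4. Exon 7 was spliced to exon 9 in 32 transcripts, to exon 8 in 24 and directly to exon 10 in 7, and exon 8 was spliced to exon 9 in 11. Between exon 7 and exon 11 the number of bases left a remainder of 1 after division by 3 in 44 of 62 transcripts (71.0%, interval 58.7% to 80.8%). Since exons 8 and 9 have 76 bases each and exon 10 has 63, this share largely restates the choice of exons.

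The choice between exons 8 and 9 occurred with every common start and end. With exon 1 as the first exon, 5 of 26 transcripts held exon 8 only, 11 exon 9 only, 5 both and 5 neither. With exon 3 first, the counts were 3, 3, 2 and 1 of 9, and with exon 4 first they were 2, 4, 0 and 0 of 6. With exon 13 last they were 6, 20, 6 and 3 of 35, and with exon 14 last 5, 8, 5 and 6 of 24. These counts are small, and no test of the differences was made. The spliced RNA between exon 1 and exon 9 had a median of 449 bases (344 to 525), and how far both were seen on 1 molecule was not tested.

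At the start of tpm1, 7 first exons recurred. The donor that ends exon 1, at base 1097185, ended the first exon of 26 transcripts, 17 of them with the 464-base form (1096722 to 1097185), and all 26 went on to exon 2, of 126 bases (1098408 to 1098533). After a further 6308 bases lie the other long first exons: the donor of exon 3 ended the first exon of 9 transcripts, 2 of them with the commonest form (1104842 to 1104949), and exon 4 (1104990 to 1105351) started 6. Exons 3 and 4 are 40 bases apart. Upstream of exon 1, first exons that end at base 1096710 started 3 transcripts. They began at different bases, and the longest has 147 bases (1096564 to 1096710). The remaining 3 first exons have at most 5, 3 and 10 bases and started 6, 4 and 5 transcripts. The gene thus has a distal start followed by exon 2 and a pair of starts between exon 2 and exon 5. Exon 4 of that pair was also used internally.

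At the end of tpm1, exon 13 (1120046 to 1120282, 237 bases) ended 35 transcripts and exon 14 (1125300 to 1126610, 1311 bases) ended 24. These ends went with different use of exon 12, of 79 bases (1114130 to 1114208). Exon 12 was held in 26 of 35 transcripts that end in exon 13 (74.3%, interval 57.9% to 85.8%) and in 1 of 24 that end in exon 14 (4.17%, interval 0.739% to 20.2%). The junctions show it directly: exon 12 was spliced to exon 13 in 26 transcripts and to exon 14 in 1, and exon 11 was spliced to exon 14 in 23, to exon 13 in 9 and to exon 12 in 30. A 36-base piece from the acceptor of exon 12 ended 3 transcripts, and a last exon of at most 3 bases ended 4. Exon 1 was combined with exon 13 in 15 assembled transcripts and with exon 14 in 11, so both ends occurred with the distal start in this catalogue. The spliced RNA between exon 1 and exon 11, which lies before both ends, already had a median of 584 bases (355 to 664). The labels give fragments of 300 to 600 bp with adapters attached. How far this start and either end were seen on 1 molecule was not tested.

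In tpm1 there were 2 microexon forms, fewer than in tnnt3 but more than in 7967 of the 8199 annotated genes. Of the 160 genes with 50 or more transcripts, 61 had more than 2, and their median was 1. The tpm1 forms are a 20-base end of exon 5 (1109767 to 1109786, 2 transcripts) and a 23-base end of exon 7 (1110558 to 1110580, 7 transcripts). Both share the donor of a longer exon that most transcripts hold in full, unlike the free-standing microexons of tnnt3. In 3 transcripts pieces of exon 5 were spliced to each other, so its 20-base end can also follow a front piece of the same exon. No neighbouring acceptors of tpm1 lay 3 bases apart (0 of 14 pairs, interval 0% to 21.5%). Exons 5, 6, 7 and 10 had other forms with 1 to 114 bases taken from or added to an end, each in 2 to 7 transcripts.

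Exons skipped recurrently, meaning held by 2 or more transcripts and spliced over by 2 or more, numbered 42 forms at tnnt3 and 22 at tpm1, and 36.5% of annotated genes had 1 or more. These counts fell to 14 and 8 when overlapping forms were counted once, to 20 and 7 without transcripts that start or end in an exon of 10 bases or less, and to 22 and 12 when 3 transcripts were required on each side. Their lengths were divisible by 3 in 18 of 42 forms at tnnt3 (42.9%, interval 29.1% to 57.8%) and 7 of 22 at tpm1 (31.8%, interval 16.4% to 52.7%), against 7665 of 17890 over all annotated genes (42.8%). Both intervals include the share over all genes. Among the 160 genes with 50 or more spliced transcripts, the median was 24.5 skipped forms. Of those 160, 44 had more than tnnt3 and 86 had more than tpm1.

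**Figure D5:**
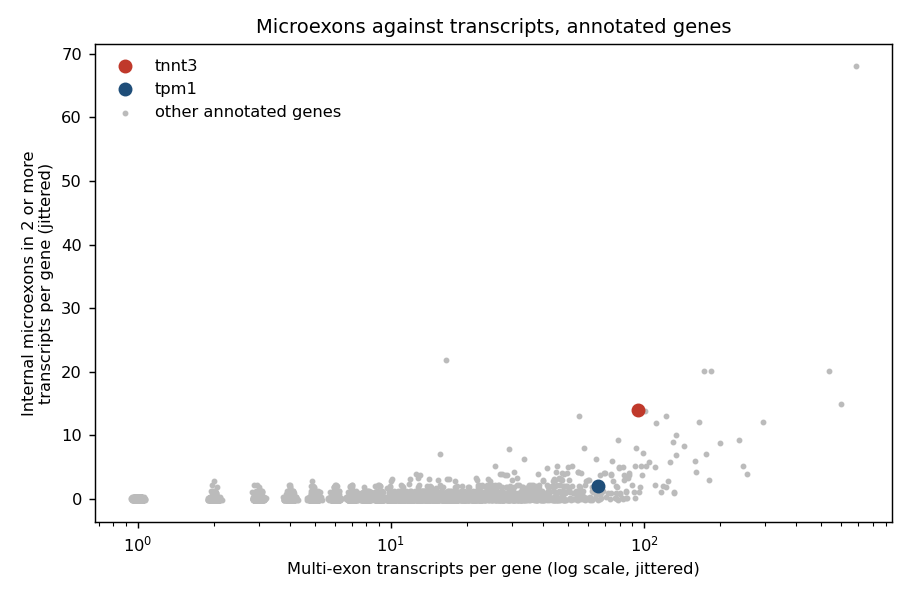
Each point is 1 annotated gene, with its spliced transcripts on a log axis and its recurrent microexon forms on the vertical axis, both moved slightly at random so that points do not hide each other. Red marks tnnt3 (95 transcripts, 14 forms) and blue tpm1 (66 transcripts, 2 forms).

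The genes nearest to tnnt3 at or above its number of microexon forms were col18a1 (14 forms, 103 transcripts), hnrnpa1 (15, 593), col2a1, krt12 and tulp3 (20 each, with 171, 526 and 182 transcripts). These 5 had more spliced transcripts than tnnt3, but LOC100170623, just outside the 5 and named after its values were seen, had 22 forms in 17 transcripts. For tpm1 no such genes could be singled out, because 124 genes also had 2 forms. Of the other troponin T and tropomyosin genes, tpm2 had 8 spliced transcripts with 2 skipped exon forms and no microexon, and the gene with the symbol tpm3 had 9, with 2 of each. In the RefSeq table tpm3 is only an older name, of both tpm1 and tpm4, so the identity of that model is uncertain. The symbols tnnt1, tnnt2 and tpm4 were looked for by exact name and had no spliced model.

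Around both genes, the list of thin filament, sarcomere and splicing regulator genes held 57 names, of which 37 had a spliced model. Without tnnt3 and tpm1, the median of the other 35 genes was 11 spliced transcripts, against 5 over all annotated genes. Of those 35, 10 had a microexon form (28.6%, against 9.53% over all genes), 27 had a recurrently skipped exon (77.1%, against 36.5%) and 4 had a pair rarely used together (11.4%, against 3.61%). Such events need 2 or more transcripts, and how far these shares follow the higher number of transcripts was not tested. The troponin I and troponin C genes had far fewer transcripts than tnnt3. The troponin I genes tnni1, tnni2 and tnni3 had 17, 8 and 7, with 1, 1 and 2 microexon forms. The troponin C genes tnnc1 and tnnc2 had 7 and 12 with none. The Z-disc gene ldb3 had 46 transcripts and 2 microexon forms. Of the splicing regulators, rbfox2 had 80 transcripts, celf1 64, qki 42 and mbnl2 11. Of the genes listed as muscle markers, 12 of 13 for skeletal muscle, 3 of 5 for heart and 3 of 5 for smooth muscle had a spliced model. Nearly all symbols of the gene models had one (8199 of 8368), and a model did not have to be an assembled one. These counts therefore cannot show whether a muscle type was present.

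Runs of exon lengths were then compared with all other spliced transcripts, a comparison made after the exons had been seen. The lengths of the tpm1 run of exons 5, 6, 7, 8, 10 and 11, with 134, 118, 71, 76, 63 and 70 bases, occurred at 1 other locus, that of tpm3. They were in 15 tpm1 and 3 tpm3 transcripts. The 15 include transcripts with exon 9 in place of exon 8, since exon 8 was spliced to exon 10 in only 12. Exons 6, 7 and 9 (118, 71 and 76 bases) were matched in length at tpm2, in 3 transcripts, and at tpm3, in 6. Exons 9, 10 and 11 (76, 63 and 70 bases) were matched in 10 transcripts of the gene with the symbol MGC76092 and in 5 of tpm3. The lengths of the tnnt3 run of exons 12 to 16, with 78, 114, 110, 91 and 41 bases, were in 52 tnnt3 transcripts. These include transcripts with exon 17 in place of exon 16, since exon 16 was in only 47. The run of lengths was matched at 1 other locus, on the minus strand of scaffold GL172992 (461970 to 479755), in both transcripts of a locus without an annotated gene. Since exons 16 and 17 of tnnt3, and exons 8 and 9 of tpm1, have equal lengths, such a run does not tell which of the pair is matched, and no sequence was compared.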

How the data were processed

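Both deposited tables describe 1 assembly pooled over the series. Bowtie, TopHat and Cufflinks appear in the submitters' processing notes without version or role, and the sources used here give neither genome build nor annotation release. The labels give dUTP marking of the second strand. Of the deposited values, the column headed FPKM is a score (no value exceeds 1 and 58.9% of 167756 entries equal 1), used as a relative weight. The deposited coverage is a signal that, within each gene, was a constant multiple of that weight, and it was not used as depth. Lengths and exon positions were taken as deposited by the authors.

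Splicing events were counted by exact exon ends in Python 3.11.15, with figures by matplotlib 3.10.9. A first or last exon was told apart by its splice site, and all events needed 2 transcripts unless stated. Numbered exons group overlapping forms of 11 bases or more. The event rules were tested on simulated data. Shares carry Wilson 95% intervals. No file used here gives a value per sample, so the planned tests between stages and clutches were not run, and no p-value was computed.

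Named were both members with their recurrent events, other troponin T and tropomyosin genes, genes of the same locus, and the 5 genes nearest in microexon number. Numbered exons, acceptors 3 bases apart, tolerance for joint use and length runs were added after the values were seen. Members and lists were chosen with earlier results of these data known. No sequence is printed.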

Additional observations from a re-analysis of the deposited data

How the results depend on the processing

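No paired analysis was possible because no value belongs to a sample. Limits come first from the pooling: depth per library is unknown, so a rare form cannot be told from one made by few reads, and a skipped exon cannot be placed in a stage or tissue. Of 88 alternative values, 56 stayed within 1.5 times the count or within the interval of the share, and 32 moved, as follows. Keeping only transcripts with a relative weight of 1 left 27 at tnnt3 and 37 at tpm1. With support of 1 transcript in place of 2, skipped exons numbered 67 at tnnt3 and 43 at tpm1, exclusive pairs 4 and 7, and first exons 14 and 14, while last exons at tnnt3 rose to 9 and microexons at tpm1 to 4. With support of 3, skipped exons fell to 22 and 12, first exons at tnnt3 to 4 and microexons at tpm1 to 1. A microexon limit of 51 bases gave 26 and 5. With no demand on the flanking sites, exclusive pairs numbered 4 and 2. Taking every transcript of the tnnt3 locus gave 12 first and 9 last exons. The remaining alternatives were chosen after seeing the data. Leaving out transcripts with a first or last exon of 10 bases or less gave 20 and 7 skipped exons, 3 and 3 first exons, 3 last exons at tnnt3, 1 microexon at tpm1, and a share divisible by 3 of 60% at tnnt3 (interval 38.7% to 78.1%). Counting overlapping forms once gave 14 and 8 skipped exons and 6 microexons at tnnt3. Joint use in up to 20% gave 1 exclusive pair at each gene.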

Other observations

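Several exons of tnnt3 outside the variable stretch also had recurrent forms with other ends. Exon 10 (46 bases, 58 transcripts) had forms of 34 bases in 14 transcripts and 44 bases in 8, both ending at an earlier donor. Exon 11 (117 bases, 57 transcripts) had 5 other forms, of which a 39-base form was in 4 transcripts. Exon 15 (91 bases, 67 transcripts) had 5 longer forms of 92 to 97 bases, each in 2 to 5 transcripts, whose acceptors lie 1 to 6 bases upstream. Exon 14 (110 bases) had a single recurrent form, in 84 transcripts.

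Over the whole path between exon 1 and exon 18, 35 of 55 tnnt3 transcripts had an intervening length that is a multiple of 3 (63.6%, interval 50.4% to 75.1%). Between exon 1 and exon 11 of tpm1 the share was 15 of 27 (55.6%, interval 37.3% to 72.4%). Introns of the spliced transcripts of annotated genes had a median of 794 bases, against which the 677 bases between exons 16 and 17 of tnnt3 and the 582 bases between exons 8 and 9 of tpm1 can be set.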
